A study of Mus musculus with 27 samples.

Results

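The genes described here are 50 genes of DNA replication and cell division, given as a list of symbols. The list names them by function and not by a measured value, although it was drawn up with earlier results of these data known. They were handled as 20 S-phase genes, which are made when a cell prepares and runs DNA replication, and 28 mitotic genes, which serve chromosome segregation and cytokinesis. Stmn1, a tubulin-binding protein, and Hmgb2, a chromatin protein abundant in dividing cells, were kept in neither class. All 50 were found among the 47729 mouse gene IDs of the count table, and all 50 passed the filter on low counts, as did 14059 genes in total. The study sequenced RNA in bulk from CD8+ T cells sorted out of MC38 tumours, a mouse colon adenocarcinoma line grown in mice. PD-1, the inhibitory receptor induced by antigen, and KLRG1, a receptor of differentiated effector cells, defined the sort. The Tri mice received the combination called TCT in the series text, its agents being not given in the sources used here, and the Iso mice received an isotype control. There were 5 libraries of Tri PD1+KLRG1+ cells, 5 of Tri PD1+KLRG1- cells, 4 of Tri PD1-KLRG1+ cells, 5 of Tri PD1-KLRG1- cells, 4 of Iso PD1-KLRG1+ cells and 4 of Iso PD1-KLRG1- cells. PD1+ cells came from Tri mice only, so that treatment was compared within PD1- cells. All 27 libraries share the tumour line, and what the labels say of the mice includes neither age, sex and strain nor any pooling. Since the labels do not state that libraries came from separate mice, p-values measure the spread between these libraries.

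The members belong to successive stages of the cell cycle. E2F transcription factors, released when cyclin-dependent kinases act on the retinoblastoma protein, switch on the genes for the replicative helicase (Mcm2 to Mcm7, loaded by Cdc6 and fired with Cdc45 and the GINS complex), the sliding clamp Pcna and the enzymes of nucleotide supply (Rrm1, Rrm2, Tyms, Tk1, Dut). Later, complexes that hold B-MYB and FOXM1 bind CHR elements in promoters and switch on mitotic genes such as cyclin B, Plk1, the Aurora kinases and the kinetochore proteins, and the same elements are bound by the repressive DREAM complex in resting cells. In tumours, dividing CD8+ T cells are mainly recently activated effector cells and the progeny of antigen-experienced precursors. A library of sorted cells holds resting and dividing cells together, and in bulk a larger share of dividing cells and more transcript in each of them cannot be told apart.

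Library totals ran between 6991521 and 26284630 counts in 26 libraries, and the total was 93198 in Iso PD1-KLRG1+ replicate 3. There, 3 counts are worth 27.6 CPM (counts per 1000000, on library totals scaled by TMM). In that library 23 of the 50 members had no count. The other Iso PD1-KLRG1+ libraries lacked 5 members in replicate 1, 2 in replicate 2 and 8 in replicate 4. Their totals were 6991521, 7171417 and 19929546 counts, the first 2 below every library of the other groups. The libraries of the other groups lacked 0 to 3. Counts were found for 8981, 9252, 5832 and 9427 genes in Iso PD1-KLRG1+ replicates 1 to 4, and for 10608 genes in Tri PD1-KLRG1- replicate 5, where the other libraries of that Tri group had 12695 to 15149. That Tri library, the shallow one and Iso PD1-KLRG1+ replicate 4, which had the highest sums of myeloid and of tumour or stromal markers, are called the 3 outlying libraries. The summed level of 8 T cell markers was between 6650 and 13730 CPM in every library, and Cd8a lay between 808.5 and 2402 CPM. Myeloid markers summed to 156.6 to 10390 CPM in Iso PD1-KLRG1+ libraries and to 986.3 to 3952 CPM in Iso PD1-KLRG1- libraries, and to at most 738.8 CPM in Tri libraries. Krt8 and Krt19, epithelial keratins in the list of tumour and stromal markers, had no count in any library, while the 12 markers of that list summed to 36.9 to 3874 CPM in Iso PD1-KLRG1+ libraries and to at most 129.3 CPM elsewhere.

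The first comparison asked how much of the cell cycle programme each sorted population carried. Under Tri, the levels of S-phase and of mitotic genes were higher in KLRG1+ than in KLRG1- libraries in either PD-1 gate. The S-phase level of a library, the mean over the 20 genes of log2(CPM + 1), was 7.33, 6.95, 6.66, 6.57 and 6.87 in the Tri PD1+KLRG1+ libraries, against 6.5, 6.47, 6.25, 6.06 and 6.37 in the Tri PD1+KLRG1- libraries. It was 6.86, 6.74, 6.74 and 6.61 in the Tri PD1-KLRG1+ libraries, against 5.99, 6.06, 6.28, 5.79 and 5.8 in the Tri PD1-KLRG1- libraries. In each pair every KLRG1+ library lay above every KLRG1- library. The mitotic level, the same mean over the 28 mitotic genes, was 6.51, 5.89, 6.24, 5.83 and 6.16 in the Tri PD1+KLRG1+ libraries, against 5.46, 5.28, 5.46, 4.97 and 5.24 in the Tri PD1+KLRG1- libraries. It was 5.97, 5.76, 5.84 and 5.54 in the Tri PD1-KLRG1+ libraries, against 4.81, 4.82, 5.01, 4.86 and 5.5 in the Tri PD1-KLRG1- libraries. The mitotic levels did not overlap between KLRG1 gates either, although Tri PD1-KLRG1- replicate 5 came close to the lowest Tri PD1-KLRG1+ library. Myeloid markers summed to 209.7 to 738.8 CPM in Tri PD1+KLRG1+ and 240.5 to 700.9 CPM in Tri PD1+KLRG1- libraries, and to 211.8 to 276.3 CPM in Tri PD1-KLRG1+ and 180.0 to 559.4 CPM in Tri PD1-KLRG1- libraries, so that they overlapped between KLRG1 gates.

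The Iso libraries did not show this separation. Their S-phase level was 6.52, 6.87, 4.46 and 6.58 in Iso PD1-KLRG1+ cells, against 6.03, 6.32, 5.96 and 6.63 in Iso PD1-KLRG1- cells. Their mitotic level was 5.36, 6.7, 2.13 and 4.88 in Iso PD1-KLRG1+ cells, against 4.94, 5.15, 4.72 and 5.38 in Iso PD1-KLRG1- cells. Iso PD1-KLRG1+ replicate 3 was the lowest library for either class, replicate 2 was above every Iso PD1-KLRG1- library, and the groups overlapped. Averaged over libraries, the S-phase level of Tri cells was 6.87 ± 0.30 (PD1+KLRG1+), 6.33 ± 0.18 (PD1+KLRG1-), 6.74 ± 0.11 (PD1-KLRG1+) and 5.98 ± 0.20 (PD1-KLRG1-), and that of Iso cells was 6.10 ± 1.11 (PD1-KLRG1+) and 6.24 ± 0.31 (PD1-KLRG1-), on the log2 scale with the SD and n = 5, 5, 4, 5, 4 and 4. The mitotic level was 6.12 ± 0.28, 5.28 ± 0.20, 5.78 ± 0.18, 5.00 ± 0.29, 4.77 ± 1.92 and 5.05 ± 0.28 in the same order of groups. The levels of PD1+ and PD1- libraries of the same KLRG1 gate overlapped, as did those of Tri and Iso libraries of the same gate.

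**Figure D1:**
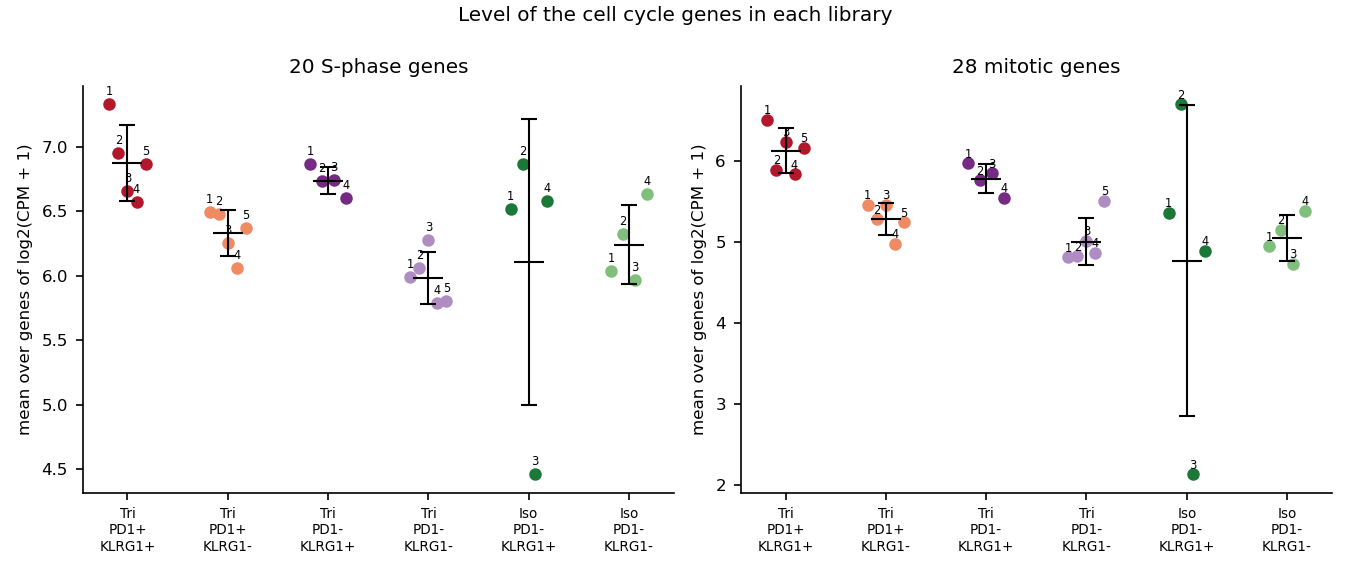
Level of the 20 S-phase genes (left) and the 28 mitotic genes (right) in each of 27 libraries, as the mean over genes of log2(CPM + 1); points are libraries with their replicate number, and bars give the group mean ± SD. Under Tri, KLRG1+ libraries lie above KLRG1- libraries in each PD-1 gate, while the Iso PD1-KLRG1+ libraries span 4.46 to 6.87 for the S-phase level.

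Gene by gene, the group order was similar for both classes. Among the 4 Tri groups, the mean CPM was highest in Tri PD1+KLRG1+ cells for 38 of the 50 members and in Tri PD1-KLRG1+ cells for 10. It was lowest in Tri PD1-KLRG1- cells for 36 and in Tri PD1+KLRG1- cells for 12. By class, Tri PD1+KLRG1+ cells were highest for 14 of 20 S-phase genes and 23 of 28 mitotic genes. With the Iso groups included, the highest mean was in Iso PD1-KLRG1+ cells for 24 members and in Tri PD1+KLRG1+ cells for 23. The median over members of the SD as a percentage of the mean was 84.6% in Iso PD1-KLRG1+ libraries, 32.7% in Iso PD1-KLRG1- libraries and between 24.1% and 42.7% in the Tri groups. Over all genes tested that median was 116.0% in Iso PD1-KLRG1+ libraries, 41.8% in Iso PD1-KLRG1- libraries and between 35.1% and 68.1% in the Tri groups.

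**Figure D2:**
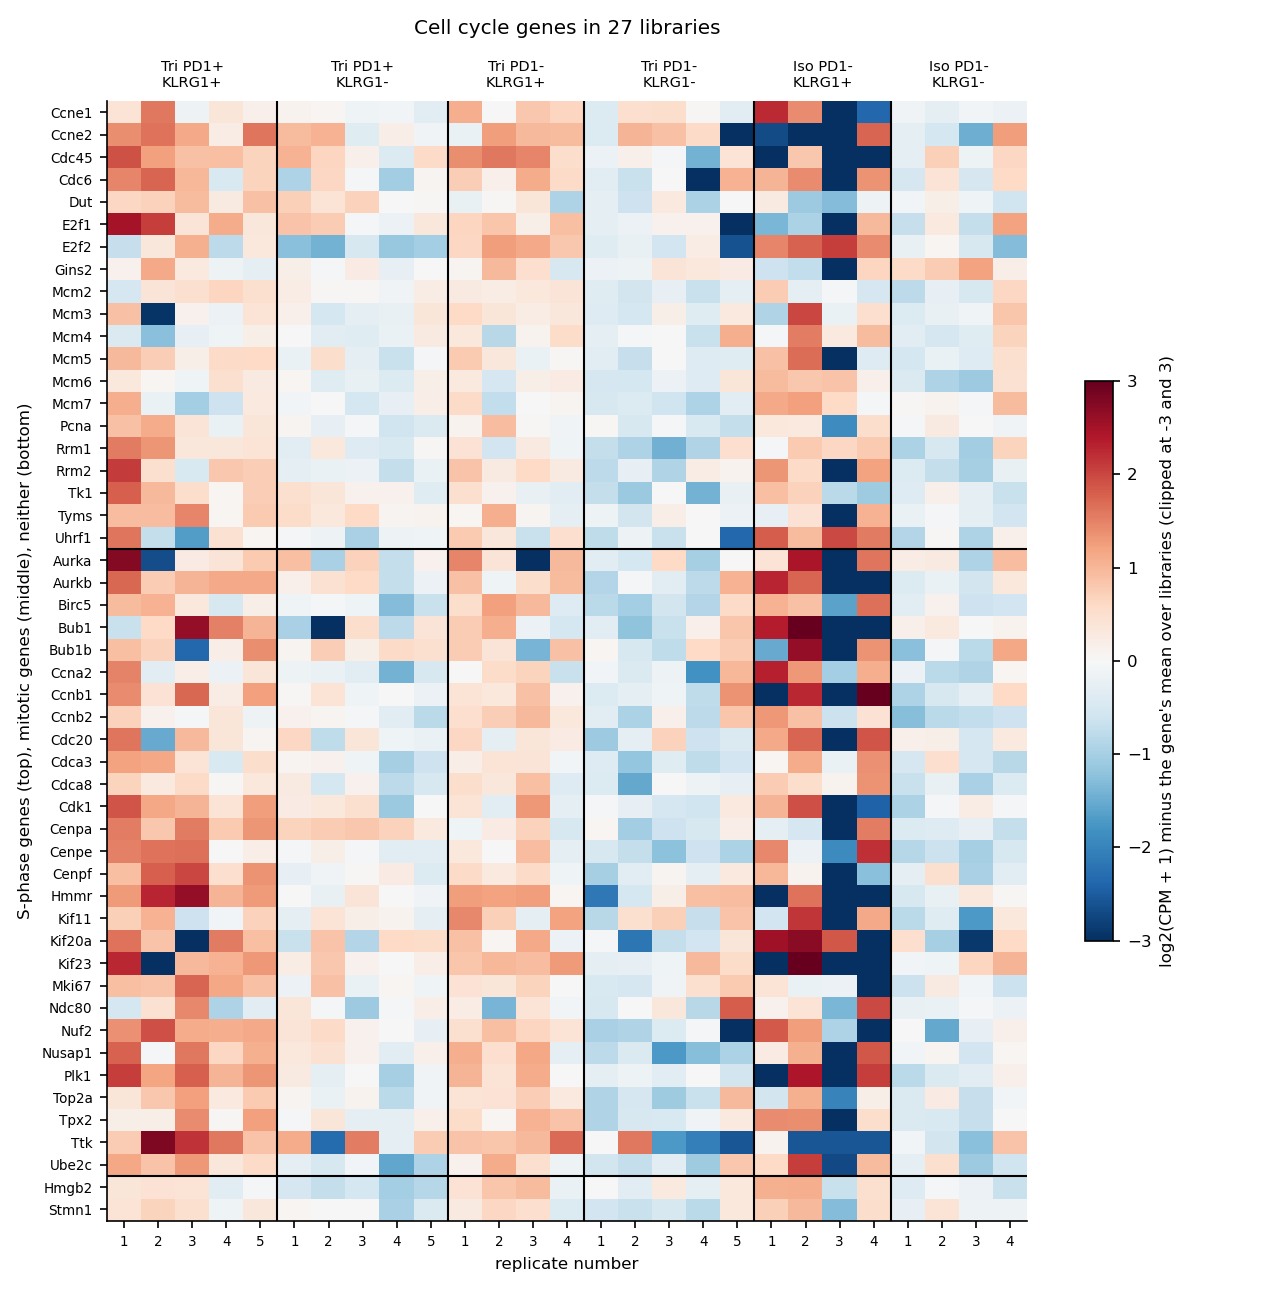
Each of the 50 members (rows) in each of the 27 libraries (columns, by group and replicate number), coloured by log2(CPM + 1) minus the gene's mean over all libraries, with colours clipped at 3 in either direction. Red fields fill most of the Tri PD1+KLRG1+ block and blue fields most of the Tri PD1-KLRG1- block, and Iso PD1-KLRG1+ replicate 3 is dark blue for the 23 members without a count.

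The KLRG1 comparison within Tri PD1+ cells gave a positive log2 fold change for 49 of the 50 members, Mcm4 being the exception at -0.24. The median log2 fold change was 0.86 over members, 0.69 over S-phase genes and 0.96 over mitotic genes, against -0.07 over all genes tested, of which 45.0% were positive. No member passed the test by itself. edgeR's quasi-likelihood test called 0 of 50 at an adjusted p under 0.05, with 0.0569% of all genes called in either direction, and 13 members had an unadjusted p under 0.05. DESeq2 called 4 members, all higher (1.53% of genes in either direction), and sample-weighted limma-voom called 3, all higher (0.164%). In 9 members every Tri PD1+KLRG1+ library was above every Tri PD1+KLRG1- library, a pattern that 0.505% of all genes showed. The median of the members was 0.84 in the libraries without an RNA number in their description and 0.77 in those with one, which form the 2 name series of the study.

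Hmgb2 had the smallest p among members, at 1094, 1149, 1125, 682 and 836 CPM in Tri PD1+KLRG1+ cells, against 603, 522, 591, 416 and 467 CPM in Tri PD1+KLRG1- cells. The groups did not overlap, and the log2 fold change was 0.90 ± 0.22 (SE) with an edgeR adjusted p of 0.259. The call differed between tools, with an adjusted p of 0.00278 in DESeq2, 0.00597 in limma-voom and 0.0161 in edgeR on these groups alone. Of the S-phase genes, Rrm1, the large subunit of ribonucleotide reductase, had 479.9, 408, 206, 205 and 216 CPM in Tri PD1+KLRG1+ cells, against 127, 199.8, 123, 118 and 165 CPM in Tri PD1+KLRG1- cells. The Rrm1 groups did not overlap, with replicates 1 and 2 of Tri PD1+KLRG1+ far above the rest, and the log2 fold change was 1.07 ± 0.36 (edgeR adjusted p = 0.414). Rrm2, the small subunit of that enzyme, had 788, 255, 134, 319.9 and 307 CPM in Tri PD1+KLRG1+ cells, against 148, 159.5, 162, 112 and 160.5 CPM in Tri PD1+KLRG1- cells. Pcna, the clamp that holds DNA polymerase on its template, had 381, 453, 272, 180.2 and 269.6 CPM in Tri PD1+KLRG1+ cells, against 222, 174, 201, 137 and 152 CPM in Tri PD1+KLRG1- cells. For either gene 4 of the 5 Tri PD1+KLRG1+ libraries lay above every Tri PD1+KLRG1- library, and the groups overlapped through replicate 3 for Rrm2 and replicate 4 for Pcna. Their log2 fold changes were 1.29 ± 0.43 for Rrm2 (edgeR adjusted p = 0.414, and 0.68 with Tri PD1+KLRG1+ replicate 1 left out) and 0.80 ± 0.28 for Pcna (edgeR adjusted p = 0.424).

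The mitotic genes with the smallest p in this comparison were Ube2c, Cenpf and Cenpe. Ube2c, the E2 enzyme with which the anaphase-promoting complex marks cyclin B for destruction, had 149, 121, 164, 83.3 and 98.7 CPM in Tri PD1+KLRG1+ cells, against 54.2, 46.7, 61.9, 21.7 and 34.2 CPM in Tri PD1+KLRG1- cells. Its groups did not overlap, and the log2 fold change was 1.51 ± 0.49 (edgeR adjusted p = 0.414, DESeq2 0.0433, limma-voom 0.0278). Cenpf, a large protein of the outer kinetochore, had 54.2, 102, 118, 41.03 and 75.2 CPM in Tri PD1+KLRG1+ cells, against 23.99, 26.5, 29.5, 34.3 and 21.2 CPM in Tri PD1+KLRG1- cells. Cenpe, the kinesin that carries chromosomes to the spindle equator, had 108, 119, 121, 37.5 and 43.4 CPM in Tri PD1+KLRG1+ cells, against 36.9, 42.6, 36.7, 29.7 and 29.6 CPM in Tri PD1+KLRG1- cells. The Cenpf groups did not overlap, while Cenpe in Tri PD1+KLRG1+ replicate 4 lay within the Tri PD1+KLRG1- range. Their log2 fold changes were 1.49 ± 0.58 for Cenpf (edgeR adjusted p = 0.481) and 1.27 ± 0.53 for Cenpe (edgeR adjusted p = 0.518). Plk1, the kinase that drives mitotic entry and spindle assembly, had 162, 86.2, 133, 77.6 and 96.1 CPM in Tri PD1+KLRG1+ cells, against 45.3, 30.4, 37.4, 18.3 and 34.9 CPM in Tri PD1+KLRG1- cells. Top2a, the topoisomerase that untangles sister chromatids, had 193, 265, 351, 182 and 259 CPM in Tri PD1+KLRG1+ cells, against 159, 131, 161, 85.7 and 138 CPM in Tri PD1+KLRG1- cells. For these 2 genes the groups did not overlap, with log2 fold changes of 1.74 ± 0.82 for Plk1 and 0.89 ± 0.39 for Top2a, neither past the edgeR threshold. The other members without overlap were Aurkb, the kinase of the chromosomal passenger complex, Hmmr, a spindle protein, and Nuf2, a subunit of the NDC80 kinetochore complex.

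Within Tri PD1- cells the KLRG1 comparison again gave 49 positive log2 fold changes among 50, the exception being Ndc80 at -0.46. The median was 0.61 over members, 0.57 over S-phase genes and 0.68 over mitotic genes, against -0.01 over all genes tested, of which 48.9% were positive. edgeR called 0 of 50 (0.0% of all genes), and 5 members had an unadjusted p under 0.05. DESeq2 called 1 higher (1.43% of genes in either direction) and sample-weighted limma-voom called 2 higher (0.192%). In 9 members the groups did not overlap, with KLRG1+ above, against 0.918% of all genes. This comparison shares no library with the one in PD1+ cells, and 48 of the 50 members were positive in both, 19 of the S-phase and 27 of the mitotic genes. Both comparisons come from 1 fit, and the labels do not say whether their libraries shared mice. The share of all genes positive in both is not given here. Of the members without overlap, 1 was shared between the gates, Nuf2, which was singled out after its values were seen. The median within name series was 0.81 without and 0.23 with an RNA number, which 1 Tri PD1-KLRG1+ library and 2 Tri PD1-KLRG1- libraries carry. Without the 3 outlying libraries the median of the members was 0.80.

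Nuf2 had 49.2, 73.2, 40.4, 39.9 and 41.6 CPM in Tri PD1+KLRG1+ cells, against 24.3, 27.5, 19.97, 18.2 and 15.3 CPM in Tri PD1+KLRG1- cells. It had 25.9, 35.3, 28.96 and 24.6 CPM in Tri PD1-KLRG1+ cells, against 8.91, 9.37, 13.5, 17.5 and 0.295 CPM in Tri PD1-KLRG1- cells. The log2 fold changes were 1.22 ± 0.94 in PD1+ and 1.46 ± 0.99 in PD1- cells, with an edgeR adjusted p of 1.0 in each. Nusap1, a microtubule-bundling protein of the spindle, had the smallest p in Tri PD1- cells, at 107, 70.9, 112 and 41.2 CPM in Tri PD1-KLRG1+ cells, against 28.2, 36.5, 14.3, 19.7 and 25.04 CPM in Tri PD1-KLRG1- cells. Every KLRG1+ library was above every KLRG1- library, and the log2 fold change was 1.73 ± 0.55 with an adjusted p of 0.993 in edgeR and 0.0119 in DESeq2. Birc5, or survivin, of the chromosomal passenger complex, had 124, 203, 168 and 65.7 CPM in Tri PD1-KLRG1+ cells, against 48.5, 41.9, 58.7, 46.2 and 128 CPM in Tri PD1-KLRG1- cells. Cdca8, or borealin, of the same complex, had 98.3, 87.4, 129 and 52.1 CPM in Tri PD1-KLRG1+ cells, against 51.4, 23.1, 67.9, 61.95 and 57.5 CPM in Tri PD1-KLRG1- cells. Replicate 5 of Tri PD1-KLRG1- was the library that overlapped for Birc5, and Tri PD1-KLRG1+ replicate 4 the one for Cdca8, with log2 fold changes of 1.03 ± 0.46 and 0.78 ± 0.37 (edgeR adjusted p = 1.0 each). For these 2 genes the sign turned in the libraries with an RNA number, with log2 fold changes of -0.40 for Birc5 and -0.195 for Cdca8, where 1 Tri PD1-KLRG1+ library stood against 2 Tri PD1-KLRG1- libraries, replicate 5 among them.

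Among S-phase genes of Tri PD1- cells, E2f2, an activating E2F factor of lymphocytes, had 63.7, 99, 90.8 and 71.8 CPM in Tri PD1-KLRG1+ cells, against 31.3, 35.1, 27.1, 47.6 and 5.85 CPM in Tri PD1-KLRG1- cells. Mcm2, a subunit of the replicative helicase, had 219, 215, 226 and 241 CPM in Tri PD1-KLRG1+ cells, against 141, 125, 155, 114 and 151 CPM in Tri PD1-KLRG1- cells. Neither gene overlapped between the groups, with log2 fold changes of 1.41 ± 0.48 for E2f2 and 0.74 ± 0.27 for Mcm2 (edgeR adjusted p = 0.993 each). Uhrf1, which keeps DNA methylation through replication, had 177, 129, 63.9 and 144 CPM in Tri PD1-KLRG1+ cells, against 59.7, 92.2, 63.9, 102 and 19.1 CPM in Tri PD1-KLRG1- cells. Its groups overlapped through Tri PD1-KLRG1+ replicate 3, and the log2 fold change was 0.94 ± 0.48 (edgeR adjusted p = 1.0). E2f2 in PD1+ cells had 24.9, 51.7, 87.4, 23.3 and 51.5 CPM in Tri PD1+KLRG1+ cells, against 16.6, 14.8, 28.98, 18.01 and 19.6 CPM in Tri PD1+KLRG1- cells, with 3 KLRG1+ libraries above all KLRG1- libraries. The test of whether the KLRG1 difference itself differed between PD-1 gates called 0 of 50 members in edgeR (0.0% of all genes), 0 had an unadjusted p under 0.05, DESeq2 called 0 (1.47% of genes) and sample-weighted limma-voom called 0 (0.0356%). The median of that difference of log2 fold changes, PD1+ minus PD1-, was 0.14 over members, against -0.05 over all genes. It was 0.0659 without the 3 outlying libraries and ran from 0.0337 without Tri PD1+KLRG1+ replicate 1 to 0.238 without replicate 4 of that group.

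**Figure D3:**
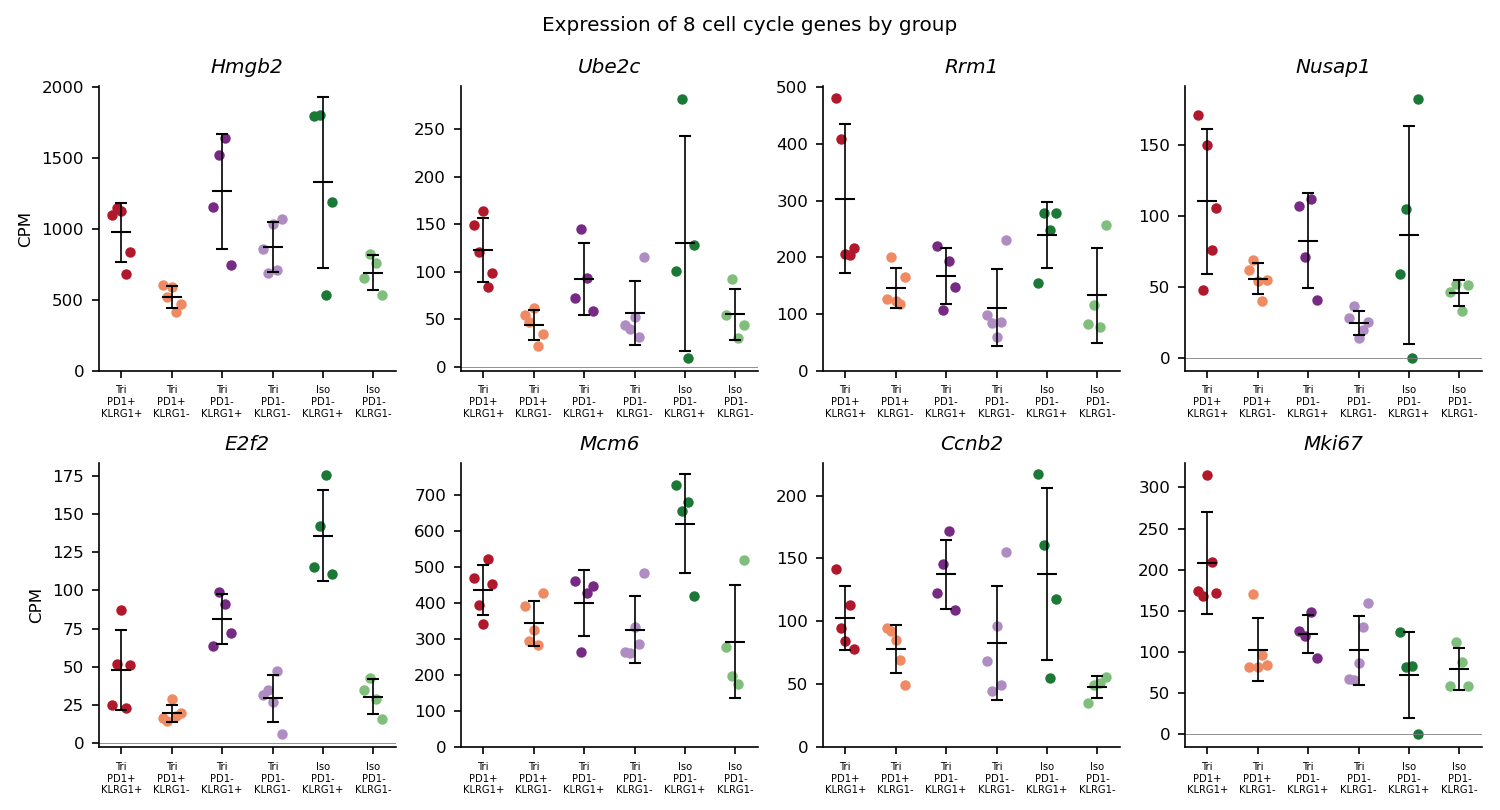
CPM of 8 members in each library by group, with the group mean ± SD as bars; points are libraries. Hmgb2, Ube2c and Rrm1 do not overlap between Tri PD1+KLRG1+ and Tri PD1+KLRG1- libraries, Nusap1 and E2f2 do not overlap between Tri PD1-KLRG1+ and Tri PD1-KLRG1- libraries, and the Iso PD1-KLRG1+ libraries spread widely for Ube2c, Nusap1 and Ccnb2.

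Other proliferation markers overlapped between the KLRG1 gates, in PD1+ cells, in PD1- cells or in either. Mki67, which encodes the Ki-67 protein that coats mitotic chromosomes, had 175, 168, 315, 209 and 172 CPM in Tri PD1+KLRG1+ cells, against 81.99, 171, 81.4, 96.4 and 84.9 CPM in Tri PD1+KLRG1- cells. It had 125, 119.6, 149 and 93.4 CPM in Tri PD1-KLRG1+ cells, against 67.6, 65.7, 87.1, 130.4 and 159.9 CPM in Tri PD1-KLRG1- cells. Replicate 2 of Tri PD1+KLRG1- and replicates 4 and 5 of Tri PD1-KLRG1- overlapped with the KLRG1+ libraries, with log2 fold changes of 1.01 ± 0.68 in PD1+ and 0.13 ± 0.74 in PD1- cells. Cdk1, the kinase of mitotic entry, had 154, 93.8, 85.1, 55.5 and 100.5 CPM in Tri PD1+KLRG1+ cells, against 48.9, 51.7, 57.96, 18.5 and 40.99 CPM in Tri PD1+KLRG1- cells. It had 54.8, 32.8, 103 and 33.8 CPM in Tri PD1-KLRG1+ cells, against 39.5, 34.5, 29.02, 27.1 and 50.97 CPM in Tri PD1-KLRG1- cells. The log2 fold changes of Cdk1 were 1.20 ± 0.61 in PD1+ and 0.45 ± 0.65 in PD1- cells. Ccnb1, cyclin B1, the partner of Cdk1, had 121, 60.4, 149.5, 52.3 and 106 CPM in Tri PD1+KLRG1+ cells, against 45.5, 59.8, 40.5, 44.99 and 39.5 CPM in Tri PD1+KLRG1- cells. It had 59.4, 55.5, 82.4 and 48.8 CPM in Tri PD1-KLRG1+ cells, against 33.2, 36.8, 40.8, 25.8 and 116 CPM in Tri PD1-KLRG1- cells. Cyclin B1 overlapped in either gate, and Tri PD1-KLRG1- replicate 5 was its highest PD1- library under Tri. The remaining Tri PD1- values of genes shown above for PD1+ cells were 199, 204, 249 and 183 CPM of Top2a in Tri PD1-KLRG1+ cells, against 79.9, 106, 70.6, 93.9 and 296 CPM in Tri PD1-KLRG1- cells. Plk1 had 78.1, 50.3, 82.96 and 37.8 CPM in Tri PD1-KLRG1+ cells, against 31.3, 34, 29.6, 38.03 and 25.4 CPM in Tri PD1-KLRG1- cells. Both overlapped, through replicate 5 of Tri PD1-KLRG1- for Top2a and replicate 4 of Tri PD1-KLRG1+ for Plk1.

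Genes of replication entry had positive log2 fold changes in both PD-1 gates, with overlap between most groups. Mcm5, a helicase subunit, had 351, 299, 201, 266 and 271 CPM in Tri PD1+KLRG1+ cells, against 154, 258, 144, 112 and 174 CPM in Tri PD1+KLRG1- cells. It had 306, 226, 155 and 181 CPM in Tri PD1-KLRG1+ cells, against 144, 111, 179.9, 135 and 139 CPM in Tri PD1-KLRG1- cells. The Mcm5 log2 fold changes were 0.73 ± 0.40 in PD1+ and 0.59 ± 0.42 in PD1- cells. Tyms, thymidylate synthase, had 136, 136, 198, 74.1 and 122 CPM in Tri PD1+KLRG1+ cells, against 105, 88.2, 107, 75.6 and 76.4 CPM in Tri PD1+KLRG1- cells. It had 73.2, 152, 74.5 and 57.2 CPM in Tri PD1-KLRG1+ cells, against 63.6, 47.7, 81.6, 71.7 and 62.1 CPM in Tri PD1-KLRG1- cells. The Tyms groups overlapped in either gate, with log2 fold changes of 0.55 ± 0.43 in PD1+ and 0.42 ± 0.46 in PD1- cells. E2f1, the best-known activating E2F, had 139.5, 104, 31.4, 52.2 and 30.4 CPM in Tri PD1+KLRG1+ cells, against 43.8, 41.1, 22.98, 20.9 and 30.3 CPM in Tri PD1+KLRG1- cells. It had 37.4, 42.9, 27 and 45.01 CPM in Tri PD1-KLRG1+ cells, against 19.2, 20.7, 26, 26.2 and 0 CPM in Tri PD1-KLRG1- cells. Its PD1- libraries did not overlap, and replicate 5 of Tri PD1-KLRG1-, which had no E2f1 count, is the library where Top2a was highest in that group. The E2f1 log2 fold changes were 1.19 ± 0.88 in PD1+ and 1.05 ± 0.91 in PD1- cells. Ccne1, cyclin E1, which starts S phase with Cdk2, had 58.1, 132, 39.4, 56.5 and 48.4 CPM in Tri PD1+KLRG1+ cells, against 47.1, 45.7, 39.4, 41.2 and 34.3 CPM in Tri PD1+KLRG1- cells. It had 93.05, 43.3, 76.96 and 68.1 CPM in Tri PD1-KLRG1+ cells, against 32.5, 62.05, 63.5, 44.7 and 33.96 CPM in Tri PD1-KLRG1- cells. Replicate 2 of Tri PD1+KLRG1+ stood above the other Tri libraries for Ccne1, and the groups overlapped in either gate, with log2 fold changes of 0.66 ± 0.59 in PD1+ and 0.52 ± 0.63 in PD1- cells. Rrm2 had 335, 223, 279 and 220.3 CPM in Tri PD1-KLRG1+ cells, against 106, 154, 97.2, 212 and 198 CPM in Tri PD1-KLRG1- cells, without overlap. Pcna had 224, 397, 212 and 194 CPM in Tri PD1-KLRG1+ cells, against 214, 148, 202, 151 and 125 CPM in Tri PD1-KLRG1- cells. Pcna overlapped through Tri PD1-KLRG1- replicates 1 and 3. Mcm5, Tyms, E2f1, Ccne1, Rrm2 and Pcna did not pass the edgeR threshold in either gate.

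The promoters of 6 members named in these comparisons are shown because S-phase and mitotic genes are known to be read through different elements, the E2F site and the CHR. The windows are RefSeq promoters of GRCm38.p6, 250 bases before to 50 after the start of the gene, written 5′ to 3′ along the gene. Capitals mark matches, on either strand, to E2F sites (TTTCCCGC, TTTCGCGC, TTTGCCGC or TTTGGCGC), CHR elements (TTTGAA or TTCGAA) and CCAAT boxes (CCAAT), and adjoining or overlapping matches run together. Mcm6 and E2f2 stand for S-phase genes with an E2F match (E2f2 has 2 windows, and the other, at chr4:136180532-136180831, plus strand, holds a CHR and 3 CCAAT matches and no E2F match), Ccnb2, Cdca8 and Plk1 for mitotic genes with a CHR match, and Hmgb2 is the member with the smallest p in Tri PD1+ cells. Mcm6 lies at chr1:128359656-128359955, minus strand, and E2f2 at chr4:136172024-136172323, plus strand. Ccnb2 lies at chr9:70421505-70421804, minus strand, Cdca8 at chr4:124936868-124937167, minus strand, Plk1 at chr7:122159185-122159484, plus strand and Hmgb2 at chr8:57511593-57511892, plus strand.
Mcm6: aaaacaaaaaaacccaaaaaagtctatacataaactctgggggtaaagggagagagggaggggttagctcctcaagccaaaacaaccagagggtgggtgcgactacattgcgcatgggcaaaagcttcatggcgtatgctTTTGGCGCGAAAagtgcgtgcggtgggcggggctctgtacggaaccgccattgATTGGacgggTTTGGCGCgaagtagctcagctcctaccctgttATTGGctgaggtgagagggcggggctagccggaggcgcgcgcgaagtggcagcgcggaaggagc
E2f2: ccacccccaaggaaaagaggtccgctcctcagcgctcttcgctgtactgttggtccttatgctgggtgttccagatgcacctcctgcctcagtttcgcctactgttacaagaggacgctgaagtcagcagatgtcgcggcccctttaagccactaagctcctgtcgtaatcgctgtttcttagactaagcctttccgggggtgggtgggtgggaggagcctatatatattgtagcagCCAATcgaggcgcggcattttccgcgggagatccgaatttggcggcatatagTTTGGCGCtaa
Ccnb2: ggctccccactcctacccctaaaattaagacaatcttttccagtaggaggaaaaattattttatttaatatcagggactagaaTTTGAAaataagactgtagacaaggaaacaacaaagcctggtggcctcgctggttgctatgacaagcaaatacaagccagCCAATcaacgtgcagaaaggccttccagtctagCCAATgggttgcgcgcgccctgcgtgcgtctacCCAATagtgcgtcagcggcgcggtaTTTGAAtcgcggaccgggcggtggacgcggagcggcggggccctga
Cdca8: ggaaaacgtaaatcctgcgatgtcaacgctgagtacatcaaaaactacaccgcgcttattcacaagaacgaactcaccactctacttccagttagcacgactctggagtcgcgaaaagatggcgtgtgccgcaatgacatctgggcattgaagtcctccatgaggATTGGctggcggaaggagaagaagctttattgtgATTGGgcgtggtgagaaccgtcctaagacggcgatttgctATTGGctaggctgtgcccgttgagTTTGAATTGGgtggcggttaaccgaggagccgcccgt
Plk1: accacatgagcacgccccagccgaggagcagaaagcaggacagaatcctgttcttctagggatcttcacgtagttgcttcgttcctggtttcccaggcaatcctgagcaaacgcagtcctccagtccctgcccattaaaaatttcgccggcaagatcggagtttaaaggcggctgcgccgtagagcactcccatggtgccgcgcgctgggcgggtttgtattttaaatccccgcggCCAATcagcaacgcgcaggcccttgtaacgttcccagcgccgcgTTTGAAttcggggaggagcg
Hmgb2: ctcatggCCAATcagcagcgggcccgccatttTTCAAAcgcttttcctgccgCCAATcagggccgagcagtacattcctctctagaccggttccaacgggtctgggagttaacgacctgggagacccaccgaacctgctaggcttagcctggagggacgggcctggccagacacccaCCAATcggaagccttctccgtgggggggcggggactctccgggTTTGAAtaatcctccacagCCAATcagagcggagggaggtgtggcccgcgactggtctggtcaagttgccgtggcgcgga

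CHR letters were frequent in mitotic windows and E2F letters in S-phase windows. RefSeq windows were matched by symbol for 42 of the 50 members, which have 45 windows, and Ccne2, Stmn1, Mcm4, Gins2, Ccna2, Aurkb, Kif20a and Tpx2 were not matched. CHR letters stood in 19 of 24 mitotic windows (79.2%) and 4 of 20 S-phase windows, against 19.2% of all 32851 windows. E2F letters stood in 1 of 24 mitotic windows (4.17%) and 7 of 20 S-phase windows (35.0%), against 2.26% of all windows. CCAAT was present in 83.3% of mitotic and 70.0% of S-phase windows, against 37.4% of all. A CHR and a CCAAT match stood together in 75.0% of mitotic windows, against 7.52% of all. Mcm6 held 3 E2F matches, of which 2 overlap, at 110 and 106 bases before the start, and the last lies 47 bases before it. Ccnb2, Plk1 and Cdca8 each held a TTTGAA match 4 to 30 bases after the start, and Hmgb2 held CHR matches on either strand and 4 CCAAT boxes. These counts describe letters in the windows and no binding was measured.

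**Figure D4:**
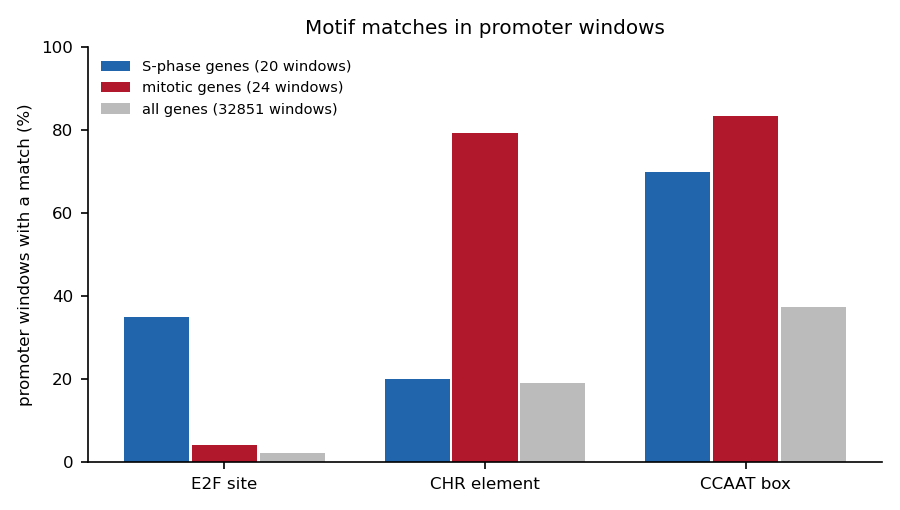
Percentage of promoter windows with at least 1 match to each motif, for 20 windows of S-phase genes, 24 windows of mitotic genes and all 32851 windows. CHR matches are in 19 of 24 mitotic and 4 of 20 S-phase windows, E2F matches in 1 of 24 mitotic and 7 of 20 S-phase windows.

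PD-1 was compared next, within each KLRG1 gate of Tri cells. In KLRG1+ cells 40 of 50 members were positive, with a median log2 fold change of 0.38 (PD1+ over PD1-), against -0.01 over all genes. The median was 0.19 over S-phase genes and 0.47 over mitotic genes. edgeR called 0 of 50 (1.2% of all genes), 4 had an unadjusted p under 0.05, DESeq2 called 2, both higher (5.36% of genes), and sample-weighted limma-voom called 2, both higher (3.91%). Mki67, Cenpa and Nuf2 did not overlap, with PD1+ above, against 2.16% of all genes. Dut, the enzyme that keeps uracil out of DNA, had 176, 185, 221, 138 and 212 CPM in Tri PD1+KLRG1+ cells, against 97.1, 117, 146 and 59.7 CPM in Tri PD1-KLRG1+ cells. All but 1 of its PD1+KLRG1+ libraries lay above all PD1-KLRG1+ libraries, and the log2 fold change was 0.91 ± 0.31 (adjusted p = 0.192 in edgeR, 0.00728 in DESeq2). Cenpa, the histone variant that marks centromeres, had 295, 176, 297, 175 and 254 CPM in Tri PD1+KLRG1+ cells, against 91.9, 119, 162 and 71.8 CPM in Tri PD1-KLRG1+ cells. Its log2 fold change was 1.06 ± 0.48 (adjusted p = 0.385 in edgeR, 0.00196 in limma-voom). Tk1, thymidine kinase, Rrm1, Cenpe and Cenpf had log2 fold changes of 0.97 ± 0.40, 0.84 ± 0.38, 0.87 ± 0.56 and 1.12 ± 0.62, none past the edgeR threshold. E2f2 ran the other way, at -0.73 ± 0.48 (edgeR adjusted p = 0.695). Myeloid markers summed to 209.7 to 738.8 CPM in Tri PD1+KLRG1+ libraries and 211.8 to 276.3 CPM in Tri PD1-KLRG1+ libraries, and their part in these values was not tested.

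In KLRG1- cells 34 of 50 members were positive, with a median log2 fold change of 0.12, against 0.06 over all genes. The median was 0.386 without Tri PD1-KLRG1- replicate 5, 0.292 without Tri PD1+KLRG1- replicate 4 and 0.0569 without Tri PD1-KLRG1- replicate 1. edgeR called 0 of 50 (1.56% of all genes), and 5 had an unadjusted p under 0.05. DESeq2 called 0 higher and 1 lower (3.97% of genes), and sample-weighted limma-voom called 8 higher and 1 lower (14.4%). Mcm2, Cenpa, Cenpe and Nusap1 did not overlap, with PD1+ above, against 5.06% of all genes. Cenpa had 161, 172, 176, 164 and 123 CPM in Tri PD1+KLRG1- cells, against 105, 48.1, 65.1, 72.1 and 116 CPM in Tri PD1-KLRG1- cells. Nusap1 had 61.7, 69.01, 54.6, 39.9 and 54.8 CPM in Tri PD1+KLRG1- cells, against the Tri PD1-KLRG1- values given above. The log2 fold changes were 0.99 ± 0.45 for Cenpa (edgeR adjusted p = 0.438), 1.18 ± 0.52 for Nusap1 (edgeR adjusted p = 0.417) and 0.50 ± 0.25 for Mcm2 (edgeR adjusted p = 0.566). Cenpe, Tk1 and Dut had 0.70 ± 0.52, 0.76 ± 0.37 and 0.64 ± 0.29. Hmgb2 stood the other way round without overlap: every PD1+KLRG1- library (603, 522, 591, 416 and 467 CPM) was below every PD1-KLRG1- library (858, 686, 1036, 708 and 1066 CPM), as was so for 3.41% of all genes. Its log2 fold change was -0.77 ± 0.22 with an adjusted p of 0.0855 in edgeR, 0.0321 in DESeq2 and 0.000361 in limma-voom. The median over members was 0.43 in libraries without and -0.12 in libraries with an RNA number, and 0.41 without the 3 outlying libraries. The 2 PD-1 comparisons share libraries with the KLRG1 comparisons, so their values are not independent of them.

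The KLRG1 comparison under Iso was the only comparison of groups in which edgeR, fitted to all libraries, called members. It called 8 of 50 higher and 0 lower, against 1.24% of all genes higher and 8.66% in either direction. Of the members 42 were positive, with a median log2 fold change of 0.96, 0.59 over S-phase and 1.25 over mitotic genes, against -0.52 over all genes. This sign is opposite to that of the group means of the log2 levels above, in which the members without a count weigh more and the shallow replicate 3 was lowest. The group medians of those levels were higher in Iso PD1-KLRG1+ than in Iso PD1-KLRG1- libraries. They were 6.546 against 6.177 for S-phase and 5.121 against 5.045 for mitotic genes. E2f2, Uhrf1 and Cdca8 did not overlap, with KLRG1+ above, a pattern of 1.03% of all genes. Leaving out Iso PD1-KLRG1- libraries gave 4 calls (replicate 1), 5 (replicate 2) and 4 (replicate 3), and leaving out the shallow Iso PD1-KLRG1+ replicate 3 gave 12. Between 1 and 3 members were called lower without Iso PD1-KLRG1+ replicate 1, 2 or 4. DESeq2 called 15 members (17.3% of genes in either direction) and sample-weighted limma-voom called 1 (0.0925%). Without the 3 outlying libraries, which leaves only replicates 1 and 2 of Iso PD1-KLRG1+, edgeR called 19 higher and 2 lower. For fits that left out libraries, here and below, the share of all genes called is not given, so these counts cannot be set against it. The median was 1.13 in libraries without and 0.38 in libraries with an RNA number, where each group has 1 library, assumed to vary like those of the other groups. Myeloid markers summed to 969, 740.1, 157 and 10390 CPM in the Iso PD1-KLRG1+ libraries, against 986 to 3952 CPM in the Iso PD1-KLRG1- libraries, so that they were highest in replicate 4 and below the Iso PD1-KLRG1- range in the other 3. Tumour and stromal markers summed to 146, 569, 36.9 and 3874 CPM in the Iso PD1-KLRG1+ libraries. In the Iso PD1-KLRG1- libraries they summed to 87.1 to 129.3 CPM. Replicates 1, 2 and 4 of Iso PD1-KLRG1+ were above that range and replicate 3 was below it. The part of either marker list in the fold changes was not tested.

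The called members came from both classes. Mcm6, a helicase subunit, had 729, 656, 682 and 419 CPM in Iso PD1-KLRG1+ cells, against 279.5, 199, 176 and 519 CPM in Iso PD1-KLRG1- cells. It rose by 1.16 ± 0.27 on the log2 scale (edgeR adjusted p = 0.00658), although Iso PD1-KLRG1- replicate 4 overlapped, and its sign turned to -0.40 in the libraries with an RNA number. E2f2 had 116, 142, 175 and 110.5 CPM in Iso PD1-KLRG1+ cells, against 35.02, 42.5, 28.8 and 16.1 CPM in Iso PD1-KLRG1- cells. Uhrf1 had 361, 199, 405 and 305 CPM in Iso PD1-KLRG1+ cells, against 54.8, 104, 53.4 and 114 CPM in Iso PD1-KLRG1- cells. These 2 genes were high in all 4 Iso PD1-KLRG1+ libraries, the shallow replicate 3 included, and rose by 2.17 ± 0.53 for E2f2 (edgeR adjusted p = 0.0102) and 1.96 ± 0.53 for Uhrf1 (edgeR adjusted p = 0.0204). Hmgb2 had 1789.7, 1798, 534 and 1187 CPM in Iso PD1-KLRG1+ cells, against 653, 819.5, 757 and 537 CPM in Iso PD1-KLRG1- cells. It rose by 0.96 ± 0.25 (edgeR adjusted p = 0.0153), and it is the member that limma-voom also called, at an adjusted p of 0.0459. Ccnb2, cyclin B2, had 217, 160.3, 55.3 and 118 CPM in Iso PD1-KLRG1+ cells, against 35.3, 49.4, 51.4 and 56.02 CPM in Iso PD1-KLRG1- cells. Cdca8 had 117, 98.7, 73.7 and 176 CPM in Iso PD1-KLRG1+ cells, against 42.7, 58.2, 34.4 and 51.05 CPM in Iso PD1-KLRG1- cells. Cdca8 did not overlap, Ccnb2 overlapped through Iso PD1-KLRG1+ replicate 3, and they rose by 1.55 ± 0.39 for Ccnb2 (edgeR adjusted p = 0.0126) and 1.35 ± 0.39 for Cdca8 (edgeR adjusted p = 0.0299). Ccna2, cyclin A2, had 485, 234, 46.1 and 204 CPM in Iso PD1-KLRG1+ cells, against 83.97, 53.96, 50.2 and 99.2 CPM in Iso PD1-KLRG1- cells. Cenpe had 105, 33.3, 9.21 and 177 CPM in Iso PD1-KLRG1+ cells, against 20.3, 23.9, 18.4 and 26.7 CPM in Iso PD1-KLRG1- cells. Ccna2 and Cenpe were below the Iso PD1-KLRG1- range in replicate 3, where they had 5 counts and 1 count, and rose by 1.76 ± 0.54 (edgeR adjusted p = 0.0414) and 1.94 ± 0.60 (edgeR adjusted p = 0.0431). Without Iso PD1-KLRG1+ replicate 4 the log2 fold change of Cenpe was 1.09 (edgeR adjusted p = 0.213). Mcm6, E2f2, Ccnb2 and Hmgb2 were called in every fit that left out 1 Iso library. Uhrf1 was not called without Iso PD1-KLRG1- replicate 1 or 3, Ccna2 not without Iso PD1-KLRG1+ replicate 1 or Iso PD1-KLRG1- replicate 1, 2 or 3, Cdca8 not without Iso PD1-KLRG1+ replicate 4 or any Iso PD1-KLRG1- library, and Cenpe not without Iso PD1-KLRG1+ replicate 1 or 4 or any Iso PD1-KLRG1- library. Each of the 8 lost its call under at least 1 alternative, and Cdca8 and Cenpe lost it without the 3 outlying libraries (edgeR adjusted p = 0.0738 and 0.0661).

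The markers that were not called under Iso show the scatter of these libraries. Mki67 had 124, 81.5, 82.9 and 0 CPM in Iso PD1-KLRG1+ cells, against 59.4, 113, 88.01 and 58.8 CPM in Iso PD1-KLRG1- cells. Ccnb1 had 0, 218, 0 and 399.6 CPM in Iso PD1-KLRG1+ cells, against 23.01, 31.9, 36.8 and 67.4 CPM in Iso PD1-KLRG1- cells. Plk1 had 0, 207, 0 and 161 CPM in Iso PD1-KLRG1+ cells, against 20.96, 27.7, 29.9 and 41.9 CPM in Iso PD1-KLRG1- cells. Replicate 4 had no Mki67 count and the highest Ccnb1 value of all 27 libraries, and replicates 1 and 3 had no count of Ccnb1 or Plk1. Top2a had 102, 315, 36.9 and 169 CPM in Iso PD1-KLRG1+ cells, against 109.9, 178, 91.9 and 141 CPM in Iso PD1-KLRG1- cells. Birc5 had 177, 159, 27.6 and 272 CPM in Iso PD1-KLRG1+ cells, against 67.7, 93.9, 55.2 and 57.1 CPM in Iso PD1-KLRG1- cells. Cdk1 had 84.1, 162, 0 and 6.83 CPM in Iso PD1-KLRG1+ cells, against 21.03, 39.7, 48.5 and 40.04 CPM in Iso PD1-KLRG1- cells. Birc5 was above the whole Iso PD1-KLRG1- range in 3 of 4 KLRG1+ libraries and Cdk1 in 2 of 4. Mcm5 had 326, 573, 18.4 and 137 CPM in Iso PD1-KLRG1+ cells, against 123, 155, 136 and 249 CPM in Iso PD1-KLRG1- cells. Rrm2 had 462, 274, 18.4 and 422 CPM in Iso PD1-KLRG1+ cells, against 137, 111, 92.1 and 158 CPM in Iso PD1-KLRG1- cells. Pcna had 258, 256, 55.3 and 302 CPM in Iso PD1-KLRG1+ cells, against 202, 250.1, 211 and 193 CPM in Iso PD1-KLRG1- cells. In each of these 3 genes replicate 3 was the lowest of the 8 Iso libraries. Tyms had 59.3, 95.8, 0 and 147 CPM in Iso PD1-KLRG1+ cells, against 61.03, 67.7, 57.2 and 47.5 CPM in Iso PD1-KLRG1- cells. E2f1 had 8.55, 11.7, 0 and 47.2 CPM in Iso PD1-KLRG1+ cells, against 14.2, 29.5, 14.1 and 56.1 CPM in Iso PD1-KLRG1- cells. Ccne1 had 208, 118, 0 and 7.76 CPM in Iso PD1-KLRG1+ cells, against 40.3, 35.9, 40.9 and 38.3 CPM in Iso PD1-KLRG1- cells. Replicate 3 had no count of Tyms, E2f1 or Ccne1, which at its scaled total allows a level of up to 27.6 CPM.

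Treatment was compared within PD1- cells, where myeloid markers summed to 211.8 to 276.3 CPM in Tri and 156.6 to 10390 CPM in Iso libraries of the KLRG1+ gate, and to 180.0 to 559.4 CPM in Tri and 986.3 to 3952 CPM in Iso libraries of the KLRG1- gate. Tumour and stromal markers summed to 0.41 to 50.8 CPM in Tri and 36.9 to 3874 CPM in Iso libraries of the KLRG1+ gate. In the KLRG1- gate they summed to 35.8 to 92.4 CPM in Tri and 87.1 to 129.3 CPM in Iso libraries. The part of either marker list in the values that follow was not tested. In KLRG1+ cells 13 members were positive and 37 negative, with a median log2 fold change of -0.24 (Tri over Iso), against 0.34 over all genes. The sign count was even, 25 to 25, in sample-weighted limma-voom, with a median of -0.013, against 0.549 over all genes. DESeq2 gave 10 positive members and a median of -0.445, against 0.0384 over all genes. The members thus lay below all genes with each tool. The median was -0.467 without the 3 outlying libraries, -0.00246 without Iso PD1-KLRG1+ replicate 2, -0.528 without replicate 3 and -0.132 without replicate 4. edgeR called 0 of 50 (6.08% of all genes), 5 had an unadjusted p under 0.05, DESeq2 called 3, all lower in Tri (14.8% of genes), and sample-weighted limma-voom called 0 (0.0356%). edgeR called 1 member higher without Iso PD1-KLRG1+ replicate 1, 3 higher without replicate 2, and 1 higher and 1 lower without replicate 4. Ttk, the spindle checkpoint kinase, had 9.62, 9.49, 10.6 and 18.3 CPM in Tri PD1-KLRG1+ cells, against 5.36, 0, 0 and 0 CPM in Iso PD1-KLRG1+ cells. The 4 Tri values were above all Iso values as measured, a pattern of 8.72% of all genes. However, a count of 0 in the shallow replicate 3 allows up to 27.6 CPM, so that a separation cannot be stated. The log2 fold change of Ttk was 3.22 ± 1.76, with an edgeR adjusted p of 0.28. Without Iso PD1-KLRG1+ replicate 1 every Iso library of this gate is at 0, and the fitted value was 10.3 (edgeR adjusted p = 0.0223), a size that depends on the fit. E2f2 and Uhrf1 lay below the Iso libraries in all 4 Tri libraries, against 0.541% of all genes, with log2 fold changes of -0.72 ± 0.51 and -1.30 ± 0.52 (edgeR adjusted p = 0.444 and 0.14). Mcm4 had 226, 101, 194 and 265 CPM in Tri PD1-KLRG1+ cells, against 178, 523, 221 and 352 CPM in Iso PD1-KLRG1+ cells, and Mcm6 had 462, 264, 429 and 448 CPM in Tri PD1-KLRG1+ cells. The log2 fold changes were -0.74 ± 0.34 for Mcm4, -0.66 ± 0.26 for Mcm6, -1.17 ± 0.53 for Ccna2 and -2.01 ± 1.27 for Bub1, a checkpoint kinase. They moved to -0.27 for Mcm4 and -0.50 for Bub1 without Iso PD1-KLRG1+ replicate 2, and to -0.64 for Ccna2 without replicate 1. Without the 3 outlying libraries edgeR called Bub1, Ccna2 (-1.57) and Aurkb lower and Ccne2 higher in Tri, with only replicates 1 and 2 left in Iso PD1-KLRG1+. Bub1 had 23.7, 29.6, 11.9 and 9.09 CPM in Tri PD1-KLRG1+ cells, against 72.8, 220.0, 0 and 0 CPM in Iso PD1-KLRG1+ cells, and its sign turned to 0.09 in limma-voom. The median within name series was -0.07 without and -0.46 with an RNA number, where each group has 1 library.

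In KLRG1- cells the treatment groups were close over the members as a whole. There were 24 positive and 26 negative members, with a median log2 fold change of -0.03 (Tri over Iso), against -0.09 over all genes. The median was -0.233 without the 3 outlying libraries, -0.235 without Tri PD1-KLRG1- replicate 5 alone and 0.118 without Iso PD1-KLRG1- replicate 4. edgeR called 0 of 50 (0.804% of all genes), 2 had an unadjusted p under 0.05, DESeq2 called 0 (2.77% of genes), and sample-weighted limma-voom called 1, lower (7.85%). No member lay above in every Tri library, against 2.41% of all genes, and 1 of 50, Mcm7, lay below in every one, against 4.33% of all genes. Mcm7, a helicase subunit, had 108, 114, 98.9, 78.6 and 121 CPM in Tri PD1-KLRG1- cells, against 155, 163, 146 and 294 CPM in Iso PD1-KLRG1- cells. Its log2 fold change was -0.86 ± 0.35, with an adjusted p of 0.422 in edgeR and 0.0397 in limma-voom, and it moved to -0.495 without Iso PD1-KLRG1- replicate 4. Ccnb2 had 0.81 ± 0.37, Kif11, the motor that pushes spindle poles apart, 0.76 ± 0.64, Nusap1 -0.88 ± 0.54, Pcna -0.31 ± 0.30 and Mcm2 -0.28 ± 0.27, none of them called. Ccnb2 moved to 0.40 without Tri PD1-KLRG1- replicate 5, Kif11 to 0.496 without Iso PD1-KLRG1- replicate 3 and to 1.15 without its replicate 4, and Mcm2 to -0.442 and 0.0899 without Iso PD1-KLRG1- replicates 1 and 4. The median within name series was -0.02 without and -0.05 with an RNA number. The test of whether the KLRG1 difference of PD1- cells differed between Tri and Iso called 0 of 50 members in edgeR (3.59% of all genes), 2 had an unadjusted p under 0.05, DESeq2 called 0 (9.59% of genes) and sample-weighted limma-voom called 0 (0.0%). The median of that difference, Tri minus Iso, was -0.26 over members, against 0.48 over all genes. In sample-weighted limma-voom it was 0.14 over members, against 0.887 over all genes, so that the members lay below all genes in either fit. It was -0.477 over members without the 3 outlying libraries, against 0.64 over all genes. With the median of all genes not given here, it was -0.562 over members without the shallow library and 0.0947 without Iso PD1-KLRG1+ replicate 2. edgeR called 1 member higher in it without Iso PD1-KLRG1+ replicate 1 and 3 without replicate 2.

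**Figure D5:**
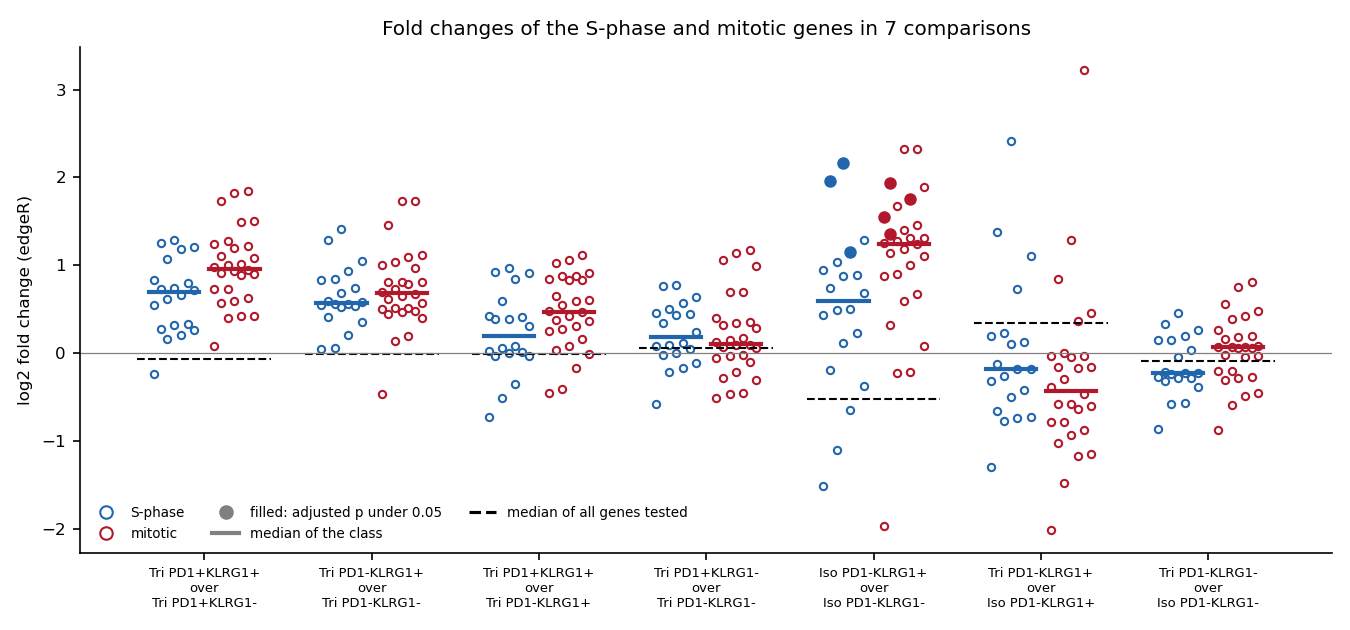
Log2 fold changes of the 20 S-phase genes (blue) and 28 mitotic genes (red) in 7 comparisons, the upper named group over the lower; filled points passed an edgeR adjusted p under 0.05, coloured lines are class medians and dashed lines the median of all genes tested. Nearly all points lie above 0 in the KLRG1 comparisons under Tri, and the filled points are 3 S-phase and 4 mitotic genes under Iso (Hmgb2 and Stmn1 are not plotted).

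Other genes of the cell cycle, taken as fixed lists, also had positive medians in the KLRG1 comparisons of Tri cells without passing the test. In Tri PD1+ cells the 36 other replication genes had a median of 0.46 with 29 positive, and the 50 other mitosis genes a median of 0.85 with 44 positive, and edgeR called none of either list (2 and 10 with an unadjusted p under 0.05). In Tri PD1- cells the medians were 0.43 with 31 positive and 0.76 with 43 positive, and edgeR called none (1 of each list with an unadjusted p under 0.05). The 9 genes of G1 entry had a median of 0.22 in PD1+ cells, and the 16 tested of 17 brakes of the cell cycle 0.16. In PD1- cells these medians were 0.12 and 0.20. Under Iso, 7 other mitosis genes rose in KLRG1+ cells and none fell, against 1.24% of all genes called higher, with a median of 0.65 over the list, against -0.52 over all genes. The 4 with the smallest p were the condensin subunits Ncapg (2.66 ± 0.59) and Ncaph (2.46 ± 0.61), Incenp of the chromosomal passenger complex (1.63 ± 0.39) and Prc1, which bundles midzone microtubules (2.04 ± 0.53), with edgeR adjusted p between 0.00437 and 0.0151. In the opposite direction, the G1 genes Ccnd2, cyclin D2, and Cdk6, its kinase, fell by 0.70 and 1.17 on the log2 scale (edgeR adjusted p = 0.023 and 0.0455), and the antiproliferative gene Btg1 fell by 1.04 (edgeR adjusted p = 0.000219), where 7.43% of all genes were called lower. No other replication gene was called under Iso, where 4 had an unadjusted p under 0.05.

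Calls among these lists in the other comparisons were few. Of all genes, 0.619% were called higher for PD-1 in KLRG1- cells, 5.46% higher for treatment in KLRG1+ cells and 0.541% lower for treatment in KLRG1- cells. Rfc2, a subunit of the clamp loader, averaged 227 ± 27.3 CPM in Tri PD1+KLRG1- cells and 114 ± 17 CPM in Tri PD1-KLRG1- cells (SD, n = 5 each) and rose by 0.99 ± 0.23 (edgeR adjusted p = 0.023). In PD1-KLRG1+ cells, Cdk6 averaged 128 ± 56.9 CPM under Tri and 44.2 ± 19.6 CPM under Iso (SD, n = 4 each) and rose by 1.5 ± 0.37 (edgeR adjusted p = 0.0142). Btg1 averaged 855 ± 74 CPM under Tri and 565 ± 148 CPM under Iso and rose by 0.61 ± 0.16 (edgeR adjusted p = 0.0239). Ckap2l, a spindle protein, rose by 4.98 ± 1.51 (edgeR adjusted p = 0.0471) over Iso libraries that averaged 1.76 ± 3.52 CPM. In PD1-KLRG1- cells, Ccnd2 averaged 515 ± 119 CPM under Tri (n = 5) and 953 ± 127 CPM under Iso (n = 4) and fell by 0.83 on the log2 scale (edgeR adjusted p = 0.0266).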

How the data were processed

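Bulk RNA-seq libraries of CD8+ T cells sorted from MC38 tumours were analysed from 1 count table of 47729 Ensembl gene IDs in 27 libraries. The deposited values are whole-number read counts per gene, not normalized. The submitters' processing notes name DESeq2 1.26.0 without its role, with aligner, counter and genome build not given in the sources used here. GENCODE M21 supplied symbols for 47224 IDs. All columns of per-sample values were used. Replicate numbers and groups were taken from the labels, and libraries fall into 2 name series, with and without an RNA number in their description, treated as a possible batch. What the RNA number stands for is not stated.

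Counts were tested in R 4.3.3 with edgeR 4.0.16 (TMM scaling, filterByExpr with a minimum count of 10, robust quasi-likelihood fit of the 6 group means plus a term for name series). All 27 libraries shared the fit, and p-values were adjusted by Benjamini-Hochberg over 14059 genes with a threshold of 0.05. There were 7 comparisons of groups and 2 tests of differences between them. CPM are counts per 1000000 of TMM-scaled totals, and levels are log2(CPM + 1). Fold changes are log2, with the SE of the fit. Library totals ran between 6991521 and 26284630 except for 1 of 93198, and the limit that a count of 0 allows is 3 counts, which covers counting error only. The alternatives were median-ratio scaling, no filter or a minimum count of 50, no series term, each name series alone, the compared groups alone, DESeq2 1.42.0, limma 3.58.1 (voom with sample weights), a replicate block, pseudocounts of 0.1 and 5, and fits without libraries. The edgeR, DESeq2 and limma-voom fits were run on simulated counts, with 1 spread for all genes and groups and no series effect. That setting differs from these libraries, and nothing is drawn from it here. Summaries and figures used Python 3.11.15 and matplotlib 3.10.9.

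The members, the classes and the further lists were named by function, with earlier results of these data known. The rule for named genes took 12 members in every library whatever they showed, in each comparison the 3 S-phase and the 3 mitotic members with the smallest p, and up to 4 called genes of each further list. All called members are also named. Other genes named for non-overlap, and Hmgb2 outside the Iso comparison, were chosen after their values were seen.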

Additional observations from a re-analysis of the deposited data

Results flagged for a closer look

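Values of the 2 class levels and of 12 members were examined in each of the 6 groups, 84 groups of 4 or 5 values in all, for a library whose gap to the nearest other library was large against the range of its group. Chance flags about 1 group in 20, and 9 were found. Of these, 6 came from 2 libraries. In Iso PD1-KLRG1+ replicate 3, the library with 93198 counts, the S-phase level was 4.46 while the others of its group lay between 6.52 and 6.87, Pcna was 5.81 with the others between 8.01 and 8.24, and Rrm2 was 4.28 with the others between 8.10 and 8.86, all as log2(CPM + 1). In Tri PD1-KLRG1- replicate 5, the mitotic level was 5.5 with the others between 4.81 and 5.01, Top2a was 8.21 with the others between 6.16 and 6.74, and E2f1 was 0.0 with the others between 4.33 and 4.76. Mki67 was 0.0 in Iso PD1-KLRG1+ replicate 4, with the others between 6.37 and 6.97. Mki67 was 7.43 in Tri PD1+KLRG1- replicate 2, with the others between 6.37 and 6.61. Rrm2 was 6.82 in Tri PD1+KLRG1- replicate 4, with the others between 7.22 and 7.34. The causes of these values were not tested.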

How the results depend on the processing

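The counts of called members moved most with the tool and with the libraries used, and the cause was not tested. Outside DESeq2 and sample-weighted limma-voom, the share of all genes called in these alternatives is not given here. A change over members and a change over all genes can therefore not be told apart from these counts. In Tri PD1+ cells the KLRG1 comparison called 0 members higher in edgeR, against 2 without the count filter, 1 with the compared groups alone, 4 in DESeq2, 3 in limma-voom, 2 without the 3 outlying libraries and 2 with no Iso PD1-KLRG1+ library. In Tri PD1- cells DESeq2 called 1 and limma-voom 2, and the median of 0.61 became 0.815 in libraries without and 0.234 in libraries with an RNA number, 0.846 in limma-voom and 0.798 without the 3 outlying libraries. The PD-1 comparison of KLRG1+ cells called 2 members higher in DESeq2, 2 in limma-voom, 2 without the 3 outlying libraries and 2 without the Iso PD1-KLRG1+ libraries. That of KLRG1- cells called 3 higher with the compared groups alone, 8 in limma-voom, 1 without the 3 outlying libraries and 2 without the Iso PD1-KLRG1+ libraries. It called 1 lower without the filter, 1 with the groups alone, 1 in DESeq2, 1 in limma-voom, 1 without the 3 outlying libraries and 1 without the Iso PD1-KLRG1+ libraries. Its median of 0.12 became 0.432 in libraries without and -0.12 in libraries with an RNA number, 0.41 in limma-voom and 0.406 without the 3 outlying libraries.

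Under Iso, the 8 higher calls became 5 in libraries without and 2 in libraries with an RNA number, 2 with the groups alone, 15 in DESeq2, 1 in limma-voom and 19 without the 3 outlying libraries, and the 0 lower calls became 7 in libraries with an RNA number and 2 without the 3 outlying libraries. In libraries with an RNA number the Iso comparison and that of treatment in KLRG1+ cells set 1 library against 1, each assumed to vary like the other groups, and their calls compare those libraries. Without the 3 outlying libraries, only replicates 1 and 2 remain of Iso PD1-KLRG1+. Treatment in KLRG1+ cells called 1 higher in libraries without and 8 in libraries with an RNA number and 1 without the 3 outlying libraries. It called 1 lower with median-ratio scaling, 2 in libraries with an RNA number, 3 in DESeq2 and 3 without the 3 outlying libraries. In KLRG1- cells limma-voom called 1 lower. The median of the difference between PD-1 gates, 0.14, became 0.448 in libraries with an RNA number and -0.207 in limma-voom. Over all genes it was -0.0254 and -0.283 in those fits. The difference between treatments called 8 higher in libraries with an RNA number and 1 without the 3 outlying libraries. Leaving out 1 library at a time gave 4 to 12 higher and 0 to 3 lower calls under Iso, 0 to 3 higher and 0 to 1 lower calls for treatment in KLRG1+ cells and 0 to 3 higher calls for the difference between treatments. The medians then ran from 0.71 to 0.96 and from 0.556 to 0.819 for KLRG1 in Tri PD1+ and Tri PD1- cells, from 0.267 to 0.512 and from 0.0569 to 0.386 for PD-1 in KLRG1+ and KLRG1- cells, and from 0.68 to 1.18 under Iso. They ran from -0.528 to -0.00246 and from -0.235 to 0.118 for treatment in KLRG1+ and KLRG1- cells, from 0.0337 to 0.238 for the difference between PD-1 gates and from -0.562 to 0.0947 for that between treatments.

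The replicate block was a term for replicate number in edgeR. For the 2 comparisons of treatment it was a limma-voom fit with a correlation within replicate numbers. With it, 7 members were called higher and 1 lower under Iso. For treatment in KLRG1+ cells 2 were called higher, and 1 was called higher for the difference between treatments. For KLRG1 in Tri PD1+ cells the median was then 0.785 with 48 members positive, against -0.2 over all genes. In Tri PD1- cells it was 0.753 with 49 positive, against -0.0164. Under Iso it was 0.282 with 34 positive, against -1.75. For PD-1 in KLRG1+ cells it was 0.195, against -0.0721. For treatment it was -0.0633 with 24 positive in KLRG1+ cells, against 0.613, and -0.121 with 17 positive in KLRG1- cells, against -0.229. It was 0.044 for the difference between PD-1 gates, against -0.164, and 0.361 for that between treatments, against 1.55. Cenpe was not called under Iso (edgeR adjusted p = 0.169), and Mcm6 for treatment in KLRG1+ cells was -0.167. The labels do not say that a number marks a shared mouse, although libraries of the same treatment and number carry consecutive running numbers in their descriptions. The correlation of deviations was not over 0.1 in every same-numbered pair, and the main fits did not pair libraries by number. That threshold cannot show that the libraries were unpaired. The correlation had a median of 0.0375 (-0.0714 to 0.149) over the 31 same-numbered pairs, with 5 over 0.1. Over 120 other pairs the median was -0.0137, with 2 over 0.1. As a hint from the data, 23 of 27 libraries were closer on average to their own number. Same-numbered pairs all lay within 1 name series, while many other pairs crossed the 2 series. The 5 pairs over 0.1 were of replicate 4 or of replicate 5, which carry an RNA number. Number and name series were therefore not separated in these values. Without the count filter Cenpe was not called either (0.148). Signs of named members reversed in libraries with an RNA number for Birc5 (-0.40) and Cdca8 (-0.195) in the KLRG1 comparison of Tri PD1- cells, Mcm6 under Iso (-0.398), Bub1 (10.2) and Mcm6 (0.182) for treatment in KLRG1+ cells and Kif11 (-0.048) for treatment in KLRG1- cells. Bub1 also reversed in limma-voom, with sample weights (0.0861) and with the block (1.57). Mcm2 reversed for treatment in KLRG1- cells in libraries without an RNA number (0.15) and without Iso PD1-KLRG1- replicate 4 (0.0899, with -0.442 without replicate 1 of that group). Of the counts recomputed, 353 were equal to the first value or within 1.5 times it and 55 were not. For all but the higher calls under Iso the first value was 0, so that an unchanged count there is a 0 that stayed 0. All 36 levels under the other pseudocounts or without TMM scaling moved by less than 1 SD. Of the named members' alternatives, 815 kept their side of the threshold and direction, 36 passed it newly and 47 no longer passed. Median-ratio scaling moved the median of all genes under Iso to -0.37 and for treatment in KLRG1+ cells to 0.15. Depth limits low members in Iso PD1-KLRG1+ replicate 3, where 0 counts allow 27.6 CPM.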

Other observations

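Hmgb2 and E2f2 stood opposite to most members between the PD-1 gates of Tri cells, a pattern picked after their values were seen. Hmgb2 averaged 977 ± 207 CPM in Tri PD1+KLRG1+, 519.7 ± 79.9 CPM in Tri PD1+KLRG1-, 1263 ± 405 CPM in Tri PD1-KLRG1+ and 871 ± 178 CPM in Tri PD1-KLRG1- cells (SD, n = 5, 5, 4 and 5). Its log2 fold change for PD-1 in KLRG1+ cells was -0.30 ± 0.24 (edgeR adjusted p = 0.806). E2f2 averaged 47.7 ± 26.1, 19.6 ± 5.53, 81.3 ± 16.4 and 29.4 ± 15.2 CPM in the same groups, and its log2 fold change for PD-1 in KLRG1- cells was -0.58 ± 0.46 (edgeR adjusted p = 1.0). E2f1, the other activating E2F of the list, had 0.92 ± 0.93 in KLRG1+ and 0.78 ± 0.87 in KLRG1- cells. The 2 comparisons use different libraries.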
